A study of Mus musculus with 15 samples.

Results

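Mbnl1 and Mbnl3 are muscleblind genes, which code for RNA-binding proteins with zinc fingers. Mbnl3 is also the gene mutated in this study of mice homozygous for the Mbnl3 ΔE2 allele and the protein whose RNA contacts were mapped. The 2 genes were taken by name. Mbnl1 is 1 of 84 genes in the authors' table of changed cassette exons, where it has 1 of 98 listed exons, and CLIP tags were counted over the span of that exon event (mm9 chr3:60305186-60399685, plus strand). Mbnl3 has no listed exon, so only its CLIP tags were counted, over a fixed window of its locus (mm9 chrX:48470000-48560000, minus strand). In the 3 wild-type (WT) libraries together, the Mbnl1 span held 56 and the Mbnl3 window 30 of 233845 tags.

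Muscleblind proteins bind short motifs that contain GC in a pyrimidine setting, and regulate alternative splicing, RNA localization and RNA stability. In myotonic dystrophy they are sequestered on expanded CUG or CCUG repeats, and the loss of their function shifts many exons toward fetal patterns. Pre-mRNAs of muscleblind genes are themselves known targets of muscleblind proteins. Mbnl1 is the member prominent in differentiated muscle, whereas Mbnl3 is expressed in embryonic tissue and in proliferating and regenerating myoblasts.

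HITS-CLIP sequences the short RNA tags that ultraviolet light crosslinks to a protein and that an antibody then precipitates. The Mb3/7 antibody against Mbnl3 was used on forelimbs of BL6 embryos at day 15, WT or Mbnl3 ΔE2/ΔE2, with 3 replicates per genotype of 4 forelimbs from 2 embryos each, and on C2C12 cells, a mouse myoblast line grown in DMEM with 20% serum, with 3 replicates of 5 plates that the authors combined. RNA-seq of polyadenylated RNA came from forelimbs of 3 WT and 3 ΔE2/ΔE2 female embryos of the same age. The allele was designed to remove the larger Mbnl3 isoform, and a smaller isoform can still be made from the locus, so the mutant lacks an isoform rather than the whole gene. No RNA level of Mbnl3 was analysed here, so the mutation was not checked in the data. The tissue label could be checked only through listed exons: 3 of 6 cartilage marker genes (Col2a1, Acan and Col11a2) and 1 of 13 muscle marker genes (Dysf) had one, and no marker of limb mesenchyme and bone, skin or blood did.

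The WT libraries held 35413, 74123 and 124309 tags. Molecules with identical position, strand and barcode that stood in both ΔE2 replicate 2 and replicate 3 numbered 33916, 83.7% and 57.4% of the tags of these libraries, and their read numbers ran in parallel. They were therefore counted as 1 library of 65730 tags beside ΔE2 replicate 1 with 67279. This leaves 3 WT against 2 ΔE2 libraries, for which an exact two-sided permutation test cannot give a p below 0.1. WT replicates also shared molecules, up to 24005 between replicates 2 and 3, and WT replicate 3 shared 20258 with ΔE2 replicate 1. Sequencer lanes in the read names differed between the genotypes (1 to 3 for WT and 5 to 8 for ΔE2), so lane and genotype cannot be told apart. The deposited tag sets are also marked 37 where they come from WT or C2C12 and 27 where they come from ΔE2. The labels leave these marks unexplained, so whatever it stands for cannot be told apart from the mutation either. The C2C12 set held 550124 tags after repeated molecules were counted once.

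The cassette exon of Mbnl1 was included more often in the knockout column of the authors' deposited table than in the WT column. The exon is 223 nt long, which is not a multiple of 3, and lies between introns of 27332 and 66615 nt. By the deposited names and lengths it falls within a stretch of 551 nt at chr3:60332519-60333069, and its exact borders were not resolved further. In the authors' deposited table the junction from the upstream exon into the cassette exon had 74.0 estimated tags in WT and 176.0 in the knockout. The junction out of the cassette exon had 3.04 and 3.03, and the junction that skips it 41.3 and 51.0. Tags within the exon numbered 74 in WT and 207 in the knockout. Junction 1 and the exon body were thus higher in the knockout, the skipping junction was somewhat higher, and junction 2 hardly had tags in either column.

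From these tags, inclusion was 48.3% in WT (Wilson 95% interval 38.1 to 59.5%) and 63.7% in the knockout (55.6 to 71.3%), a difference of 15.4 percentage points with an interval from counting alone of 1.60 to 28.1. The authors' deposited table gives an odds ratio of 0.4872, a Fisher's exact p of 0.002125 and an adjusted p of 0.0396. Each column is 1 total over its 3 embryos, so neither the interval nor the p holds the spread between embryos. Every exon in the table is a changed one by the authors' choice. Among the 98, 53 exons (54.1%) had higher inclusion in the knockout, as Mbnl1 had, and the size of its change ranked 50th, beside a median of 15.5 percentage points.

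The difference rested on 1 of the 2 inclusion junctions. By junction 1 alone, Mbnl1 inclusion was 64.2% in WT and 77.5% in the knockout, a difference of 13.3 percentage points (interval from counting 3.17 to 23.6). By junction 2 alone it was 6.85% and 5.61%, a difference of -1.24 percentage points (-13.2 to 9.27). Junction 1 had 24.4 times the tags of junction 2 in WT and 58.1 times in the knockout. So unequal a pair is uncommon in the table: in 9 of 98 events the lower junction had under 10% of the tags of the higher one in both columns. The 2 junctions went in opposite directions in 4 of the 98. The interval of junction 2 ends below the difference found by junction 1 but overlaps the interval of junction 1. The junctions also start from unlike WT levels, 64.2% and 6.85%, and junction 2 rests on about 3 inclusion tags per column. The 2 differences in percentage points can therefore not be set against each other. All tags of the Mbnl1 event together were 192 in WT and 437 in the knockout, 2.27 times as many, beside a median of 1.73 over the 98 events, so the knockout column is the deeper one for most events.

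**Figure D1:**
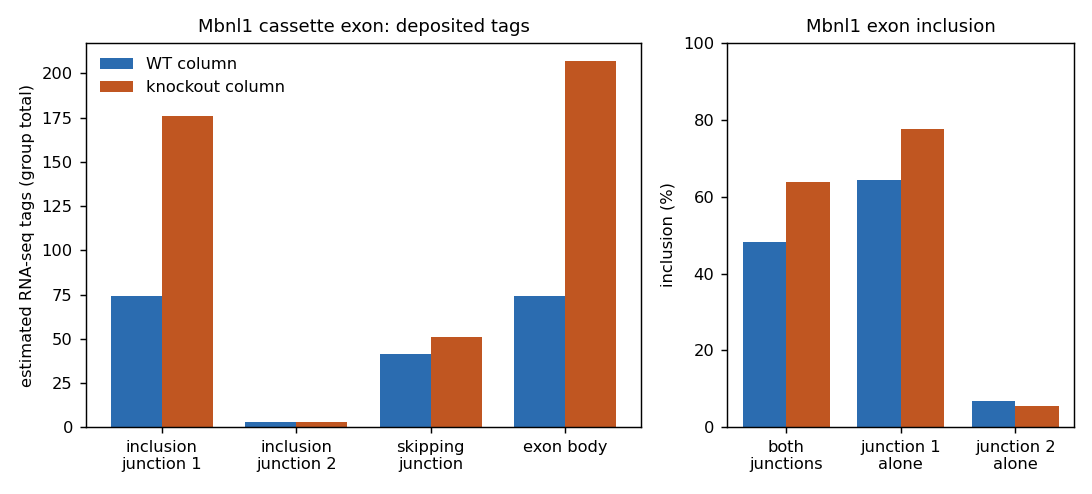
The left panel plots the estimated RNA-seq tags of the Mbnl1 cassette exon event by kind of tag, as group totals in the WT and knockout columns, and the right panel the inclusion in percent from both junctions and from each alone. Inclusion was higher in the knockout from both junctions (48.3 and 63.7%) and from junction 1, and 6.85 and 5.61% from junction 2. There are no error bars because each column is 1 total.

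The exons closest to that of Mbnl1 in their pair of inclusion levels belonged to Mtf2, Atp5c1 and Bptf, at distances of 2.04, 2.71 and 3.61 percentage points over the 2 columns. In Mtf2, whose protein belongs to a Polycomb complex, inclusion of a 202-nt exon was 50.0% in WT and 64.9% in the knockout. In Atp5c1, a subunit of mitochondrial ATP synthase, a 37-nt exon was at 51.0 and 63.8%. In Bptf, a subunit of a chromatin remodeler, a 189-nt exon was at 51.8 and 63.1%. All 3 were chosen for their likeness, which is a description only.

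Of 43 genes listed as splicing regulators, 3 were in the table, with 4 exons: 2 had higher and 2 lower inclusion in the knockout, beside 53 (54.1%) higher over all 98. No listed change is smaller than 10.1 percentage points. The median of these 4 changes, -3.39 beside 11.6 over all 98, thus falls between the 2 directions and is no sign of a shared one. Rbm9, now named Rbfox2 and a regulator of neural and muscle exons, had a 43-nt exon at 54.0% in WT and 34.3% in knockout forelimb, with an adjusted p of 0.000432 in the authors' deposited table (Fisher's exact test). It also had a 40-nt exon at 63.8 and 76.7% (adjusted p 0.0246). Rbm10, an RNA-binding protein that promotes exon skipping, had a 231-nt exon at 96.2 and 70.4% (adjusted p 0.0205). Of 45 genes listed as known muscleblind targets, 4 were in the table (Clta, Macf1, Dlg1 and Mbnl1), with 4 exons higher and 2 lower and a median of 13.3 percentage points. The 4 cartilage exons, of Col2a1, Acan and Col11a2, were all higher in the knockout. Estimated tags of the Col2a1 events were 940 and 830 in WT and 1196 and 1016 in the knockout, of the Acan event 192 and 215, and of the Col11a2 event 64 and 52. All 4 ratios of knockout to WT were below the median of 1.73 over the 98 events. The 2 Col2a1 events hold the same junction 1 and skipping tags (284 and 182 in WT), so they are not separate values. The listed muscle exon, of Dysf, went the other way, at 37.5% in WT and 9.50% in the knockout. Its event had 30.9 tags in WT and 29.0 in the knockout, also a ratio below 1.73. The part of tissue makeup in the Mbnl1 difference was not tested. In bulk tissue, fewer cells of a type and less RNA per cell cannot be told apart.

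Mbnl3 antibody tags lay on the Mbnl1 pre-mRNA in all forelimb libraries and in C2C12 cells. In the WT libraries the Mbnl1 span held 8, 17 and 31 tags, or 226, 229 and 249 tags per 1000000 tags of the library (CPM; mean 235 ± 12.7, SD, n = 3). In the ΔE2 libraries it held 11 tags in replicate 1 and 14 in replicates 2 and 3 together, or 163 and 213 CPM (mean 188 ± 35.0, SD, n = 2). The 3 WT values were above both ΔE2 values. Their small SD does not come from fully separate libraries, since WT replicate 3 shared 5 span molecules with replicate 1 and 7 with replicate 2. The log2 difference was -0.32 (exact permutation p = 0.1, the smallest possible), and 25.4% of windows of the same length were likewise lower in ΔE2 without overlap, while 18.3% were higher. With the 6 libraries as labelled the groups overlapped, at 163, 247 and 203 CPM for ΔE2 (exact permutation p = 0.3). They also overlapped with each shared molecule given to 1 library, at 197 to 247 CPM for WT and 190 to 211 for ΔE2 (exact permutation p = 0.4). In edgeR's quasi-likelihood test over 1674 windows of this length, the log2 difference of the Mbnl1 span was -0.24 ± 0.32 (SE) with a Benjamini-Hochberg adjusted p of 0.693, where 98 windows (5.85%) passed. A difference in Mbnl1 span tags between the genotypes was thus not detected beyond the spread between libraries.

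The combined C2C12 set had more Mbnl1 tags for its size than the WT forelimb libraries. The span held 272 C2C12 tags, or 494 CPM (exact Poisson 95% interval 437 to 557), 2.06 times the pooled WT forelimb level (1.54 to 2.80). These intervals cover counting error only, since the C2C12 libraries were combined. The pooled WT count also repeats molecules shared between libraries, which makes the interval of the ratio too narrow. With each shared molecule given to 1 library, the ratio was 2.16 (1.56 to 3.05). All forelimb libraries had 0 tags on the opposite strand of the span and C2C12 had 1. Mbnl1 had more tags than any other of the 98 event spans in the WT set and in C2C12, but it is also the longest span, at 94500 nt beside a median of 5369. Per kb, the Mbnl1 span had 0.593 WT tags beside a median of 0.349 over the events, and 37 events were higher. In C2C12 it had 2.88 tags per kb beside a median of 0.916, and 17 events were higher.

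**Figure D2:**
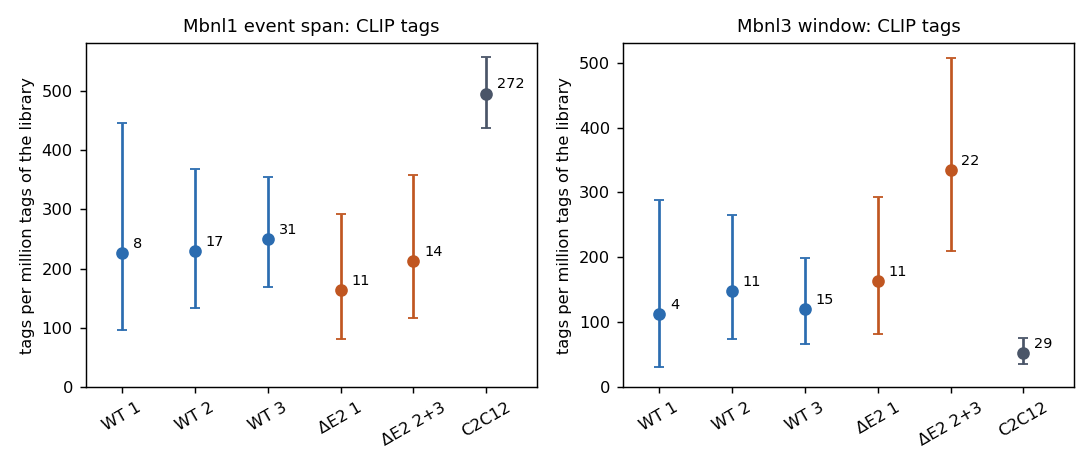
CPM values are plotted for the Mbnl1 event span and the Mbnl3 window in each forelimb library and in the combined C2C12 set, with exact Poisson 95% intervals as bars and the number of tags beside each point. C2C12 was the highest for Mbnl1, at 494, and the lowest for Mbnl3, at 52.7. The interval of each forelimb library is wide, since it rests on 4 to 31 tags.

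Part of the WT and C2C12 tags gathered at a few places of the Mbnl1 span, and the rest were scattered. When overlapping tags were joined, C2C12 tags lay at 171 places, 129 of them with a single C2C12 tag and no forelimb tag. The 25 ΔE2 tags lay at 22 places. In C2C12, 40 of 272 tags (14.7%) lay in the 551-nt stretch that holds the cassette exon, which is 0.583% of the span, and their density was 29.4 times that of the rest. No other of the 98 events had as many C2C12 tags per kb of its own exon stretch. In WT forelimb 7 of 56 tags (12.5%) lay there, in replicates 2 and 3 with 3 and 4 tags and in replicate 1 with 0, and 7 events had more WT tags per kb of stretch. In ΔE2 the stretch held 0 tags in each library, which allows up to 22.6 CPM for the pooled libraries at 3 counts. The groups overlapped because of WT replicate 1 (exact permutation p = 0.4), so a difference between the genotypes was not detectable there at this depth. Tags lay after the stretch rather than before it: the 1 kb downstream held 5 WT, 0 ΔE2 and 21 C2C12 tags, and the 1 kb upstream 0, 0 and 3.

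Overlapping tags were joined into runs, of which 7 in the Mbnl1 span had at least 3 forelimb tags. The 56 WT tags of the span were 43 distinct molecules, and WT replicates 1 and 3 shared 5 of them. Tags of a run in several WT replicates can thus be the same molecule, and are not separate evidence. Inside the exon stretch, a run at chr3:60332693-60332899 had 24 C2C12 tags, 0, 3 and 3 in the WT replicates and 0 in ΔE2. A second at chr3:60332909-60332997 had 11 C2C12 tags and 1 WT tag. Just beyond the stretch, in the long downstream intron, a run at chr3:60333112-60333167 had 5 C2C12 tags, 1, 1 and 3 in the WT replicates and 0 in ΔE2. These runs at the exon were named for their forelimb or C2C12 tags, so their presence in WT and C2C12 follows in part from the choice. No ΔE2 library had a tag in them. With 25 ΔE2 tags over the whole span, no difference between the genotypes can be read from this.

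A second group of runs lay deeper in the downstream intron, about 45 to 46 kb from the start of the span. A run at chr3:60350156-60350215 had 2, 1 and 2 WT tags, 4 C2C12 tags and none in ΔE2. A run at chr3:60350894-60350933 had 1, 2 and 2 WT tags and none in either ΔE2 or C2C12. Close after it, a run at chr3:60350936-60350960, named here after its values were seen, had 1 tag in ΔE2 replicate 1, 1 in replicates 2 and 3, and none in WT or C2C12. The fullest forelimb run, at chr3:60350996-60351079, had 1, 2 and 6 WT tags, 1 tag in ΔE2 replicates 2 and 3, and 3 C2C12 tags. The next, at chr3:60351155-60351266, had 0, 1 and 1 WT tags, 1 in ΔE2 replicates 2 and 3, and 5 C2C12 tags. The last of the 7, at chr3:60384745-60384820, had 1 tag in each WT replicate, none in ΔE2 and 6 in C2C12. Of the 7 runs, 2 had a ΔE2 tag, beside 22 of the 45 runs with any forelimb tag. The 7 were picked by their forelimb tags, of which WT gave 56 and ΔE2 25. No difference between the genotypes can therefore be read from their ΔE2 counts. Over the 1111 nt from the first to the last run of the group near 45 kb (chr3:60350156-60351266) there were 4, 6 and 12 WT tags, 2 and 3 ΔE2 tags and 20 C2C12 tags, so both ΔE2 libraries had tags in this stretch of the intron. The most frequent runs seen in C2C12 alone, at chr3:60342096-60342151 (5 tags), chr3:60333991-60334039, chr3:60368359-60368408 and chr3:60384390-60384437 (4 tags each), all lay in the same downstream intron. In steps of 10 kb, the step that holds the exon had 28.6% of WT and 31.6% of C2C12 tags, while the step from 40 to 50 kb had 46.4% of WT and 15.8% of C2C12 tags. The same steps held 12% and 20% of the ΔE2 tags, so that the share of ΔE2 in the second step was below that of WT and above that of C2C12.

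**Figure D3:**
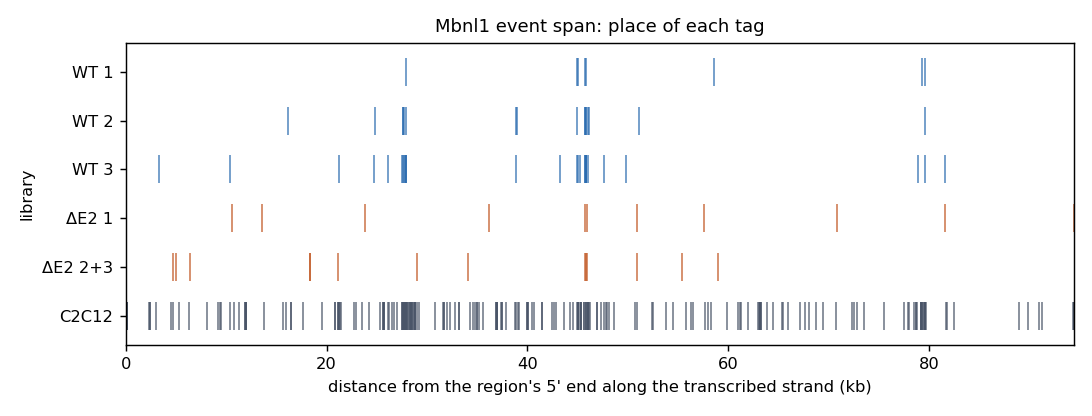
Each stroke is 1 tag in the Mbnl1 event span, by library (rows) and distance in kb from the 5′ end of the span on the transcribed strand. Many WT forelimb tags and part of the C2C12 tags gather near 28 kb, where the cassette exon lies, and near 45 kb. Of the 25 ΔE2 tags, 5 lie near 46 kb with the rest spread along the span.

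Fewer of the tags on the Mbnl1 span overlapped a C2C12 tag in each ΔE2 library than in each WT library, as a share of that library's tags. C2C12 tags cover 6.11% of the span. In the WT libraries 5 of 8, 11 of 17 and 20 of 31 tags overlapped a C2C12 tag, or 62.5, 64.7 and 64.5% (mean 63.9 ± 1.22, SD, n = 3). In ΔE2 it was 2 of 11 tags in replicate 1 and 5 of 14 in replicates 2 and 3 together, or 18.2 and 35.7% (mean 26.9 ± 12.4, SD, n = 2). The groups did not overlap (exact permutation p = 0.1, the smallest possible), and they did not when each shared molecule was given to 1 library (59.9 and 26.5%) or with the labelled ΔE2 replicates 2 and 3 apart (40% and 25%). Over all tags of the libraries the share was 33.5 to 36.9% in WT and 28.9 and 30.1% in ΔE2. Among 607 windows of the span's length with at least 8 tags in every library, 162 (26.7%) had all WT shares above both ΔE2 shares. The median difference over these windows was -3.89 percentage points and that of the Mbnl1 span -37.0, with 5 windows lower. The cutoff of 8 tags equals the count of the Mbnl1 span in WT replicate 1, so the span lies at the low edge of this set. The rank takes no account of how widely shares from few tags vary. This measure was chosen after the tags had been seen, and WT and C2C12 share the mark 37 while ΔE2 does not. In the Mbnl3 window, 2 of 30 WT and 4 of 33 ΔE2 tags overlapped a C2C12 tag, where C2C12 tags cover 0.938% of the window.

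**Figure D4:**
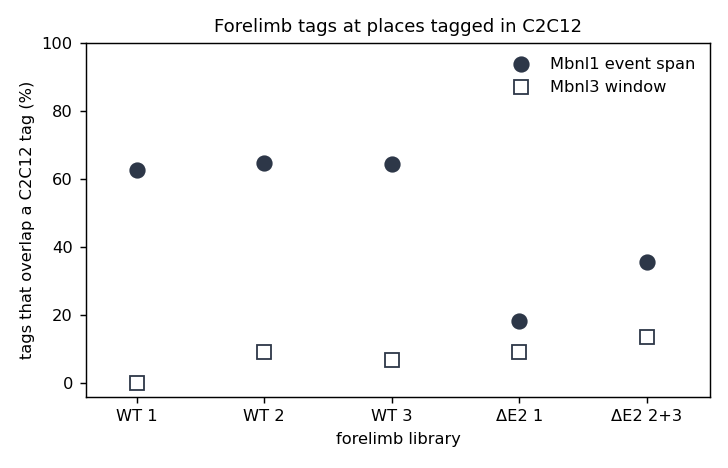
The share of forelimb tags that overlap a C2C12 tag on the same strand is plotted in percent for each forelimb library, with filled circles for the Mbnl1 event span and open squares for the Mbnl3 window. For Mbnl1 the 3 WT libraries lie at 62.5 to 64.7% and the ΔE2 libraries at 18.2 and 35.7%, and for Mbnl3 all lie under 14%.

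At the Mbnl3 locus itself, tag levels in both ΔE2 libraries were above those in WT. The Mbnl3 window held 4, 11 and 15 tags in the WT libraries, or 113, 148 and 121 CPM (mean 127 ± 18.6, SD, n = 3). It held 11 tags in ΔE2 replicate 1 and 22 in replicates 2 and 3 together, or 163 and 335 CPM (mean 249 ± 121, SD, n = 2). Both ΔE2 values were above all WT values, the first by little and the second by far. The ratio of the means was 1.96 (exact permutation p = 0.1, the smallest possible), and 18.8% of windows of this size were likewise higher in ΔE2 without overlap, while 25% were lower. In edgeR's quasi-likelihood test over 1624 windows of 90 kb, the log2 difference was 1.06 ± 0.37 (SE) with a Benjamini-Hochberg adjusted p of 0.0932, so that Mbnl3 was not among the 84 windows (5.17%) that passed, 46 (2.83%) higher and 38 (2.34%) lower. The window passed the filter on low counts through its ΔE2 libraries alone, as 0 WT libraries reached the cutoff. Its adjusted p among the filtered windows is therefore no support for a difference. A larger log2 difference was found in 78 windows.

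The Mbnl3 result depended on how the ΔE2 libraries that share molecules were counted. With the 6 libraries as labelled, where ΔE2 replicates 2 and 3 had 17 and 20 tags (419 and 338 CPM, 15 molecules in common), the edgeR adjusted p was 0.0294. Without ΔE2 replicate 1 the log2 difference was 1.50, but the ΔE2 arm is then 1 library, which is assumed to vary as the WT libraries do. With each shared molecule given to 1 library, WT values of 39.3, 176 and 104 CPM overlapped the ΔE2 values of 169 and 340 (exact permutation p = 0.3).

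The extra ΔE2 tags lay in part at places without WT tags. A run at chrX:48539319-48539357 had 5 tags in ΔE2 replicates 2 and 3, with 5908 reads, and none in WT, ΔE2 replicate 1 or C2C12. The middles of these 5 tags lay at consecutive places from 20660 to 20664 nt from the 5′ side of the window. Whether they come from separate molecules was not tested. Without this run the ΔE2 mean was 211 ± 67.3 CPM (SD, n = 2), 1.66 times that of WT (exact permutation p = 0.1, the smallest possible). A run at chrX:48519152-48519231 had 1, 0 and 2 WT tags and 3 tags in ΔE2 replicates 2 and 3. The run at chrX:48473612-48473646, toward the 3′ side of the window, had 2, 1 and 2 WT tags and 1 tag in ΔE2 replicate 1. The 30 WT tags of the window were 23 distinct molecules, so tags in several libraries can be the same molecule here too. Mbnl3 tags were otherwise scattered: of 64 runs, 3 had at least 3 forelimb tags and none had 3 C2C12 tags. The step of 10 kb at the 3′ side of the window held 36.7% of WT, 24.2% of ΔE2 and 24.1% of C2C12 tags. Read numbers were concentrated in few tags in both genotypes. In ΔE2 replicates 2 and 3, 21437 of 39525 reads in the window (54.2%) belonged to 1 tag. The fullest tag held 81.2% of the reads in ΔE2 replicate 1, 60.8% in WT replicate 3 and 44.0% in WT replicate 2. What set ΔE2 replicates 2 and 3 apart was the total number of reads. The same window had 4, 252 and 480 reads in the WT libraries and 218 in ΔE2 replicate 1. Tags rather than reads were compared for this reason.

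**Figure D5:**
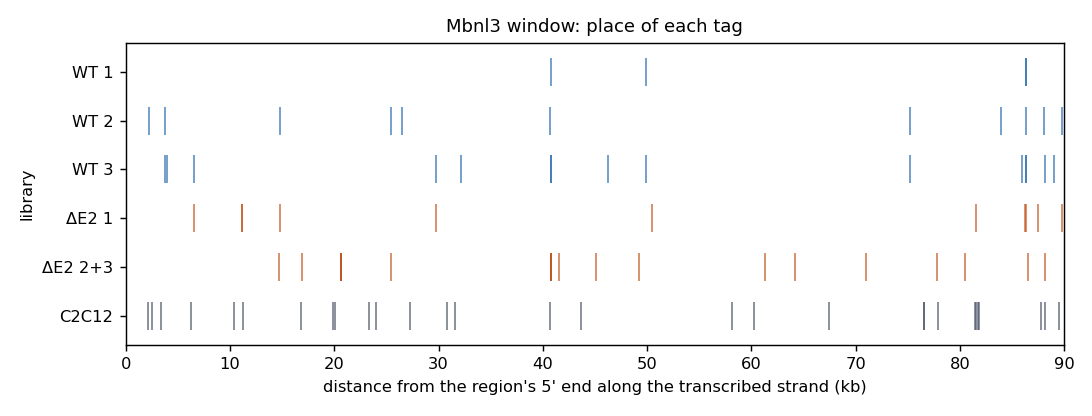
Each stroke is 1 tag in the Mbnl3 window, by library (rows) and distance in kb from the 5′ side of the window on the transcribed strand. The 30 WT, 33 ΔE2 and 29 C2C12 tags are spread over the window, with WT tags most frequent in the last 10 kb, and the 5 tags of ΔE2 replicates 2 and 3 near 21 kb stand where no other library has tags.

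The combined C2C12 set had fewer Mbnl3 tags for its size than WT forelimb. The window held 29 C2C12 tags, or 52.7 CPM (exact Poisson 95% interval 35.3 to 75.7), and the pooled WT forelimb level was 2.43 times as high (1.41 to 4.20, counting error only). With each shared molecule given to 1 library, the WT level was 2.22 times as high (1.22 to 4.01). Over 8850 windows with at least 20 tags, the log2 ratio of WT to C2C12 was 1.28 for Mbnl3 beside a median of -0.23, above 88.6% of windows. The opposite strand had 0 tags in all forelimb libraries and 1 in C2C12. Among 46076 windows of this size, the Mbnl3 window had more WT tags than 96.4%, more ΔE2 tags than 98.9% and more C2C12 tags than 88.7%. How much of these levels follows Mbnl3 or Mbnl1 RNA abundance was not tested.

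Within a library, the ratio of Mbnl1 span tags to Mbnl3 window tags needs no scaling. It was 2.00, 1.55 and 2.07 in the WT libraries (mean 1.87 ± 0.28, SD, n = 3), 1.00 in ΔE2 replicate 1 and 0.636 in replicates 2 and 3 together (mean 0.818 ± 0.257, SD, n = 2), and 9.38 in C2C12. All WT ratios were above both ΔE2 ratios (exact permutation p = 0.1, the smallest possible), and the groups stayed apart in each alternative run. With each shared molecule given to 1 library, the WT ratios were 5.00, 1.40 and 2.18, the first from 5 tags over 1. The ΔE2 ratios were then 1.125 and 0.619 (exact permutation p = 0.2). How often other pairs of windows differ in this way was not counted. The ratio combines the 2 differences above and is no separate evidence for either.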

How the data were processed

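The genes, lists and tests were chosen with earlier results of these data known. Per the submitters' processing notes, Novoalign placed the CLIP reads on mm9. For the forelimb the authors deposited 1 line per tag, with read number and barcode, and a score that was not used. The combined C2C12 set had 677787 lines, with repeated molecules among them, and no read number was taken from it. Its tags were 26 to 30 nt long, beside 19 to 38 nt in the forelimb libraries. What this does to the comparisons of C2C12 with forelimb was not tested. Tags with the same position, strand and 5-nt barcode were counted once. The RNA-seq table, from mm9 alignments with TopHat 1.3.2 per the submitters' processing notes, gives estimated counts per group deposited by the authors. It also gives an odds ratio and p-values from Fisher's exact test, per the file headers. A header names another muscleblind gene for the mutant column, which is called the knockout column here. Inclusion was recomputed as the mean of the inclusion junctions over that mean plus the skipping junction, and matched for 98 of 98 events.

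Genome windows were tested with edgeR 4.0.16 (TMM, filterByExpr with minimum count 10, adjusted p at or under 0.05), in R 4.3.3, with DESeq2 1.42.0 as an alternative. With 200 of 1624 windows changed in simulated counts, the procedure recovered 44% of 2-fold and 87% of 4-fold changes. Permutation tests, intervals and figures used Python 3.11.15 with scipy 1.17.1 and matplotlib 3.10.9. Per-library values are tags per 1000000 tags (CPM). Forelimb libraries held 35413 to 124309 tags, so 3 counts are 24.1 to 84.7 CPM. Named runs are the 10 with most forelimb and the 10 with most C2C12 tags, of at least 3, with ties by position, and named exons are the 3 nearest to that of Mbnl1. The replicates are labelled biological. Bound sequences, motifs and the deleted exon need an mm9 genome or annotation and were not analysed here. The planned comparison of 3 with 3 libraries became an alternative once shared molecules were found.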

Additional observations from a re-analysis of the deposited data

How the results depend on the processing

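For the Mbnl3 window, the edgeR log2 difference between ΔE2 and WT stayed positive in all 16 alternatives. It passed the threshold with the 6 libraries as labelled (1.27, adjusted p 0.0294) and with a replicate block on those 6 (1.47, adjusted p 0.0248). Both settings count molecules shared by ΔE2 replicates 2 and 3 more than once. In the main fit the window also entered the test through its ΔE2 libraries alone. These passes are therefore no support for a difference. The log2 difference was 1.50 without ΔE2 replicate 1, where the ΔE2 arm is 1 library assumed to vary as WT does. Without the filter on low counts it was 0.87 (adjusted p 0.736 over 27758 windows). Leaving out 1 replicate gave 0.95 to 1.50 (adjusted p up to 0.267). Same-numbered WT and ΔE2 libraries did not deviate together (correlations of -0.079, -0.007 and -0.092). Since ΔE2 replicates 2 and 3 share most of their molecules, this check cannot settle whether the numbers pair the libraries. The number of windows called, 84 (46 higher and 38 lower), was 213 with the 6 libraries, 179 with the replicate block, 141 with each shared molecule given to 1 library, 28 without the filter, 4 with DESeq2 (where Mbnl3 has an unadjusted p of 0.0807), and 0 with WT replicates 2 and 3 also counted as 1 (277 at an unadjusted p under 0.05). Leaving out 1 replicate gave 0 to 158 calls, 0 without WT replicate 2 or 3 and 49 without ΔE2 replicate 3. Scaling by all tags gave 25 higher and 71 lower and moved the median log2 difference by -0.12, and scaling by library size gave 53 higher and 59 lower.

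Mbnl1 span tags stayed lower in ΔE2 in all 12 alternatives (log2 -0.36 to -0.14), the tag ratio in all 10 and the C2C12 share in all 9. No permutation p could pass, and the edgeR test of the Mbnl1 span, which could, gave an adjusted p of 0.693. The C2C12 ratios of both genes kept their direction and moved by less than the spread between WT libraries. Mbnl1 inclusion stayed 9.80 to 15.2 percentage points higher in 4 alternatives and was -1.24 with junction 2 alone. Shared molecules, each junction alone, the run left out, the tag ratio and the C2C12 share were chosen after seeing the data. Between 4 and 31 tags per library limit all forelimb values.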
